A study of Arabidopsis thaliana with 6 samples.

Results

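The genes described here are 8 neighbours of RNS2 on chromosome 2 of Arabidopsis thaliana. They were taken by locus number, from AT2G39710 to AT2G39860, without RNS2 itself and only where the array annotation ties a probe set to a single locus. RefSeq's gene table (TAIR10.1) lists 20 other protein-coding genes in that stretch, of which 12 were not analysed here, and the 8 are set among 13286 loci measured in all. The samples were whole seedlings, 10 days old, raised on MS agar with 16 hours of light a day at 21 °C. There were 3 arrays of the mutant rns2-2, in the Col-0 background, and 3 of wild-type Col-0. The labels describe the 3 samples of a genotype as independent. The rns2-2 allele is named for RNS2, and as background it is a T-DNA insertion line. The design text gives 20 seedlings grown, without saying whether that number is per sample.

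RNS2 is an RNase T2 enzyme of the endoplasmic reticulum and vacuole, where it takes part in the turnover of ribosomal RNA. Its neighbours have unrelated functions. RCA encodes Rubisco activase, the chloroplast protein that frees Rubisco from inhibitory sugar phosphates. BPM3 encodes a MATH-BTB protein, an adaptor that brings targets such as transcription factors to CUL3 ubiquitin ligases. AT2G39725 belongs to the LYR motif family, whose members in yeast and human help to assemble mitochondrial complexes. AT2G39790 and AT2G39795 belong to the mitochondrial glycoprotein family, related to the yeast matrix protein Mam33. AT2G39710 is a predicted aspartyl protease, AT2G39850 a predicted subtilisin-like protease and AT2G39750 a predicted methyltransferase.

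Each array gives a log2 signal for every probe set, and the array medians lay between 6.51 and 6.66. Of 22746 probe sets tested, 1 passed the limma test between the genotypes (0.0044%). It was lower in rns2-2, with a mean of 5.11 against 10.41 in Col-0 (log2 change -5.30, limma adjusted p = 0.00017). This probe set has no gene name in the annotation used here. RNS2 itself has no probe set in the annotation used here. The measured green tissue marker, LHCB4.1 (1 of 8 on the list), lay between 13.58 and 13.63 in rns2-2 and between 13.51 and 13.62 in Col-0. Of the 9 root markers 3 were measured, and PYK10 among them lay between 12.58 and 12.83 in rns2-2 and between 12.45 and 12.73 in Col-0. The root hair genes EXPA7 and EXPA18 were dimmer and varied more: EXPA7 lay between 5.22 and 6.89 in rns2-2 and between 5.50 and 6.32 in Col-0, and EXPA18 between 5.48 and 6.46 in rns2-2 and between 5.58 and 6.07 in Col-0. All of these values except that of EXPA7 in rns2-2 replicate 1 were below the array medians. None of the 3 passed the limma test. Within each genotype, replicate 1 stood apart from replicates 2 and 3. The SD across probe sets of the log2 difference between replicates 2 and 3 was 0.31 in rns2-2 and 0.20 in Col-0, against 0.59 and 0.61 between replicate 1 and the others in rns2-2 and 0.58 for both such pairs in Col-0. Between genotypes it was 0.51 to 0.58 for all 9 pairs of arrays, replicate 1 included.

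None of the 8 neighbours passed the test between rns2-2 and Col-0. Their limma adjusted p ran from 0.473 to 0.979, and 0 of the 8 had an unadjusted limma p under 0.05, where 10.7% of all probe sets did. For none of the 8 were the genotypes free of overlap, where 18.5% of all probe sets were. The log2 change, rns2-2 minus Col-0, was below 0 for 6 genes and above 0 for 2, with a median of -0.07. Over all probe sets 57.2% were below 0 and 42.8% above it, and the median was -0.04. A missed threshold does not show equal levels, so the 95% interval of each difference is given with each gene. In whole seedlings, fewer cells of a type and less RNA per cell cannot be told apart.

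**Figure D1:**
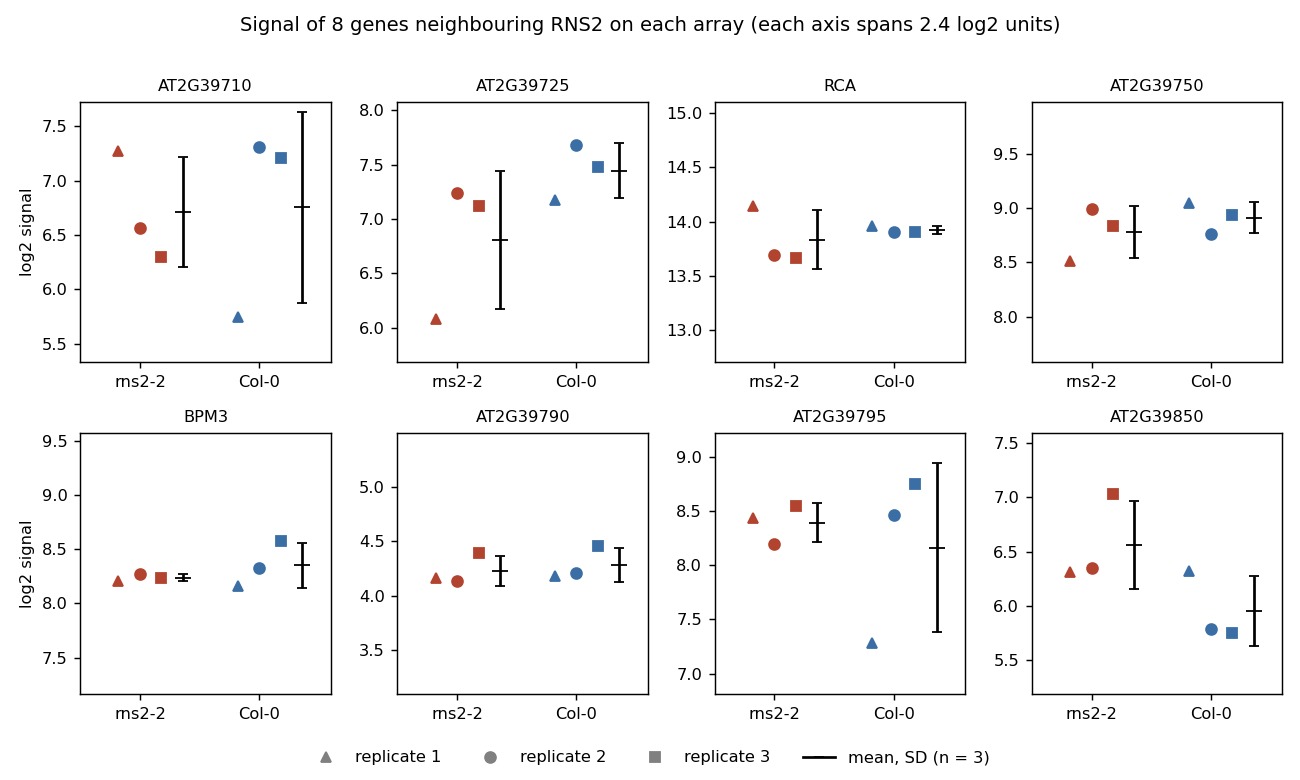
Log2 signal (vertical axes, each spanning 2.4 units) of the 8 neighbours of RNS2 in rns2-2 (left, red) and Col-0 (right, blue). Symbols are single arrays by replicate number and black bars are the mean and SD of 3 arrays. BPM3 and AT2G39790 are tight, while replicate 1 (triangles) lies far from the others for AT2G39710 in both genotypes, for AT2G39725 in rns2-2 and for AT2G39795 in Col-0.

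RCA was among the brightest probe sets of every array. Its log2 signal was 14.14, 13.70 and 13.66 in rns2-2 replicates 1, 2 and 3, against 13.96, 13.90 and 13.91 in Col-0. The rns2-2 arrays lay on both sides of the Col-0 values, with replicate 1 above all 3 of them and replicates 2 and 3 below. By brightness the RCA probe set ranked 5, 22 and 24 from the top in rns2-2 and 11, 12 and 13 in Col-0. The mean ± SD of 3 arrays was 13.83 ± 0.27 in rns2-2 and 13.92 ± 0.03 in Col-0, a log2 change of -0.09 (SE 0.15, limma adjusted p = 0.832). The 95% interval ran from -0.46 to 0.28, that is from 1.38-fold lower to 1.22-fold higher in rns2-2.

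The RCA signal was 0.33 to 0.82 log2 units below the highest probe set of its array in rns2-2, and 0.46 to 0.58 units below it in Col-0. No saturation flags were used, so whether the top of the scale compressed the RCA difference was not tested. Of the 23 genes on a list of Rubisco small subunits and Calvin cycle enzymes, the pathway that RCA serves, 3 were measured and 0 passed the test. The phosphoglycerate kinase gene AT1G56190 read 11.05, 10.72 and 11.08 in rns2-2, against 10.56, 10.63 and 10.64 in Col-0, with no overlap (log2 change 0.34, SE 0.13, limma adjusted p = 0.443). SBPASE, sedoheptulose bisphosphatase, and PRK, phosphoribulokinase, had log2 changes of 0.05 (SE 0.23) and 0.01 (SE 0.17). As for RCA, replicate 1 was the highest rns2-2 array for both, with 12.81 for SBPASE and 13.11 for PRK, beside values from 12.08 to 12.09 and from 12.65 to 12.67 in the other rns2-2 arrays. In Col-0, too, replicate 1 was the highest array for RCA, for SBPASE (12.49, against 12.16 and 12.18) and for PRK (13.03, against 12.74 and 12.64).

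BPM3 had the narrowest spread of any neighbour within rns2-2. It read 8.20, 8.27 and 8.23 in rns2-2, against 8.16, 8.33 and 8.57 in Col-0. The rns2-2 arrays fell inside the range of the Col-0 arrays. The mean ± SD of 3 arrays was 8.23 ± 0.03 in rns2-2 and 8.35 ± 0.21 in Col-0, with a log2 change of -0.12 (SE 0.13, 95% interval -0.43 to 0.20, limma adjusted p = 0.733). The 5 other BPM genes with 3 genes of the CUL3 ligase, and 6 known targets of BPM proteins, were listed for comparison, but 0 of the 8 and 0 of the 6 had a single-locus probe set in the annotation used here, and they were not analysed.

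The predicted methyltransferase gene AT2G39750, which lies next to BPM3 on the side away from RNS2, read 8.51, 8.99 and 8.83 in rns2-2, against 9.04, 8.76 and 8.94 in Col-0. The genotypes overlapped, with the lowest value in rns2-2 replicate 1 and the highest in Col-0 replicate 1. Its log2 change was -0.13 (SE 0.16, 95% interval -0.51 to 0.25, limma adjusted p = 0.754).

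AT2G39725, the LYR family gene next to RCA, had the lowest log2 change of the 8. It read 6.08, 7.24 and 7.11 in rns2-2, against 7.17, 7.68 and 7.48 in Col-0. Replicate 2 of rns2-2 lay above replicate 1 of Col-0, so the genotypes overlapped by 1 pair of arrays. The mean ± SD of 3 arrays was 6.81 ± 0.64 in rns2-2 and 7.44 ± 0.25 in Col-0, with a log2 change of -0.63 (SE 0.33, 95% interval -1.44 to 0.17, limma adjusted p = 0.530). On the fold scale rns2-2 was 1.55-fold lower, and the interval reached from 2.71-fold lower to 1.12-fold higher in rns2-2. Without rns2-2 replicate 1, its lowest array, the log2 change was -0.27 (limma adjusted p = 0.548).

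The mitochondrial glycoprotein genes AT2G39790 and AT2G39795 follow RNS2 on its other side and lie next to each other. AT2G39790 was dim, at 4.16, 4.13 and 4.39 in rns2-2, against 4.18, 4.21 and 4.46 in Col-0. Every one of these values was below the 25th percentile of its array, which ran from 4.69 to 4.92, so its transcript could not be separated from background. Its log2 change was -0.05 (SE 0.13, 95% interval -0.37 to 0.26, limma adjusted p = 0.881), a difference at a level that may hold no signal of the gene.

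AT2G39795 was well above its array medians, at 8.44, 8.19 and 8.54 in rns2-2, against 7.28, 8.46 and 8.75 in Col-0. Replicate 1 of Col-0 was more than 1 log2 unit below the other Col-0 arrays (by 1.33 from their mean), and the 3 rns2-2 arrays lay between it and Col-0 replicate 3. The log2 change was 0.23 (SE 0.38, 95% interval -0.70 to 1.16, limma adjusted p = 0.830). Without Col-0 replicate 1 it was -0.21 (limma adjusted p = 0.543), so the direction rested on that array.

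Other genes of the family were also low in Col-0 replicate 1. All 7 other mitochondrial glycoprotein genes were measured, and for 7 of 7 replicate 1 was the lowest of the Col-0 arrays, as it was for 45.7% of all probe sets. AT5G02050 read 8.20, 8.08 and 8.24 in rns2-2, against 6.78, 7.61 and 7.78 in Col-0, with no overlap (log2 change 0.79, SE 0.27, limma adjusted p = 0.415). AT5G05990 and AT4G32605 had log2 changes of 0.35 (SE 0.16) and 0.24 (SE 0.14). Of the 7 genes 5 were above 0 and 2 below, with a median of 0.27, and 0 passed the limma test (1 with an unadjusted p under 0.05). Across the 6 arrays AT2G39795 correlated with these 7 genes at r from 0.53 to 0.98, the highest with AT1G80720. Without Col-0 replicate 1, an alternative added after the values were seen, r ran from -0.30 to 0.77 and was above 0 for 5 of the 7, so its height rested in part on that array.

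**Figure D2:**
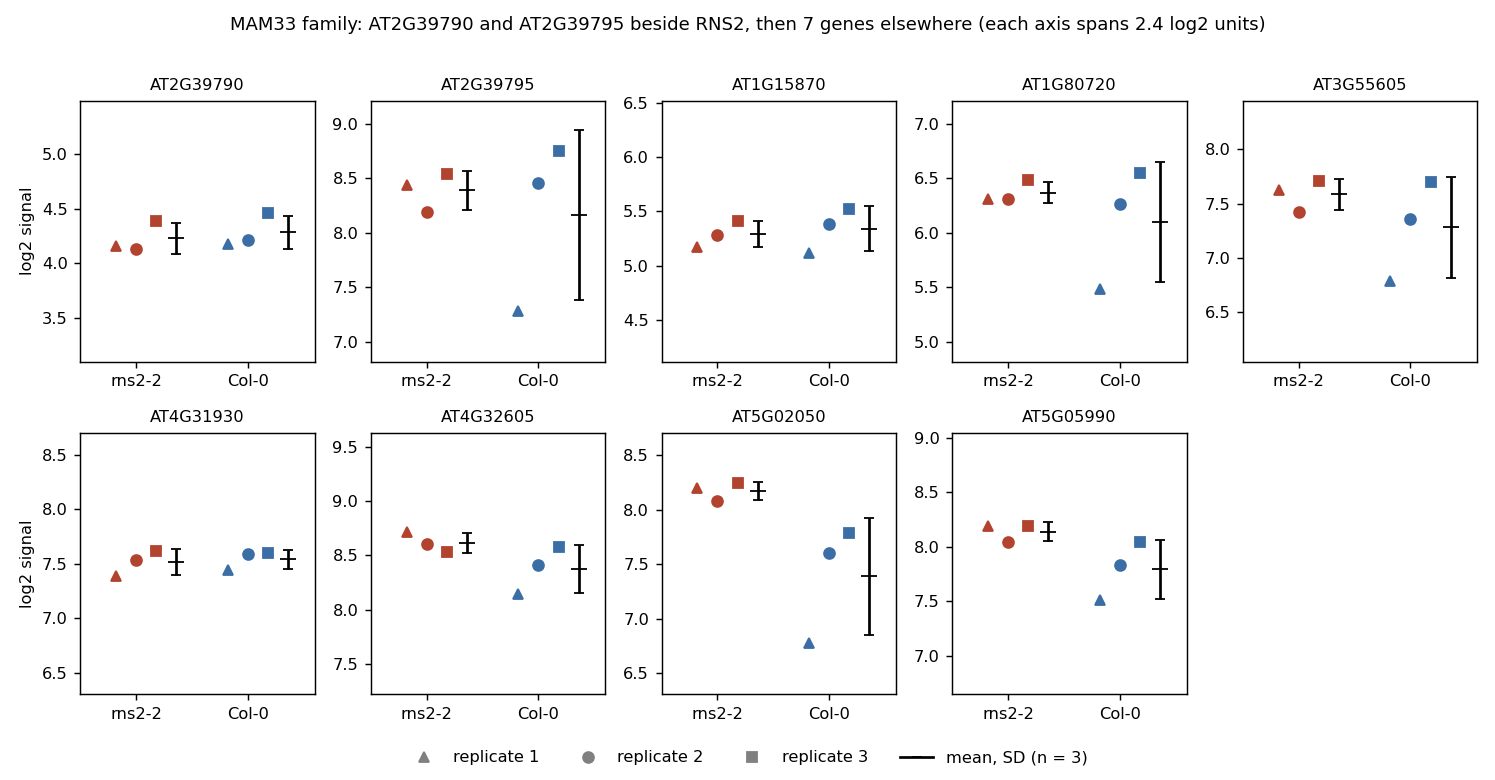
Log2 signal (vertical axes, each spanning 2.4 units) of the mitochondrial glycoprotein (MAM33) family in rns2-2 (left, red) and Col-0 (right, blue), by array, with the mean and SD of 3 arrays in black. Replicate 1 (triangles) is the lowest Col-0 array for AT2G39790, for AT2G39795 and for the 7 genes elsewhere in the genome, by 1.33 log2 units from the mean of the others for AT2G39795.

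The predicted proteases lie at the outer ends of the stretch, and both depended on which replicates were used. AT2G39850, the subtilisin-like gene, had the highest log2 change of the 8. It read 6.31, 6.34 and 7.03 in rns2-2, against 6.32, 5.79 and 5.75 in Col-0. The genotypes overlapped only in that Col-0 replicate 1 was 0.01 log2 units above rns2-2 replicate 1. The mean ± SD of 3 arrays was 6.56 ± 0.40 in rns2-2 and 5.95 ± 0.32 in Col-0. The log2 change was 0.61 (SE 0.25, 95% interval -0.01 to 1.23, limma adjusted p = 0.473), or 1.52-fold higher in rns2-2. Without rns2-2 replicate 3, its highest array, the log2 change was 0.37, and without single arrays it ran from 0.37 to 0.79. All of these values except that of rns2-2 replicate 3 lay below the median of their array, and no detection calls were used.

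AT2G39710, the aspartyl protease gene, had almost the same mean in both genotypes but the widest pooled spread of the 8 genes. It read 7.27, 6.56 and 6.30 in rns2-2, against 5.74, 7.31 and 7.21 in Col-0. Replicate 1 was the highest rns2-2 array and the lowest Col-0 array. The mean ± SD of 3 arrays was 6.71 ± 0.50 in rns2-2 and 6.75 ± 0.88 in Col-0, with a log2 change of -0.04 (SE 0.48, 95% interval -1.20 to 1.12, limma adjusted p = 0.979). The interval spans from 2.30-fold lower to 2.18-fold higher in rns2-2, so it does not exclude a 2-fold change of this gene in either direction.

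With replicates 2 and 3 only, 2 of the 8 neighbours passed the limma test, the same proteases, where 14.3% of all probe sets did (3262 of 22746). AT2G39710 then fell in rns2-2, with a log2 change of -0.83 (SE 0.15, limma adjusted p = 0.00941), while between the replicate 1 arrays it was 1.53 higher in rns2-2. AT2G39850 rose, with a log2 change of 0.92 (SE 0.22, limma adjusted p = 0.0277), and between the replicate 1 arrays its difference was -0.01. The p-values of this fit measure the spread between the close replicates 2 and 3, and replicate 1 was deposited as an equal replicate. The other 6 genes did not pass, with log2 changes from -0.40 for AT2G39725 to 0.06 for AT2G39750.

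A sign of RNA quality differed between the same arrays. The mean 3' minus 5' log2 difference over 6 pairs of probe sets for actin, GAPDH and ubiquitin was 1.49, 1.93 and 2.44 in rns2-2, against 3.01, 1.98 and 2.26 in Col-0. After the genotype means were removed, it correlated across the 6 arrays with AT2G39710 at r = -0.95 and with AT2G39850 at r = 0.91. For the other 6 genes r ran from -0.61 to 0.71. Without that removal, r was -0.81 for AT2G39710 but only 0.21 for AT2G39850. The part of this sign of RNA quality in these results was not tested.

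**Figure D3:**
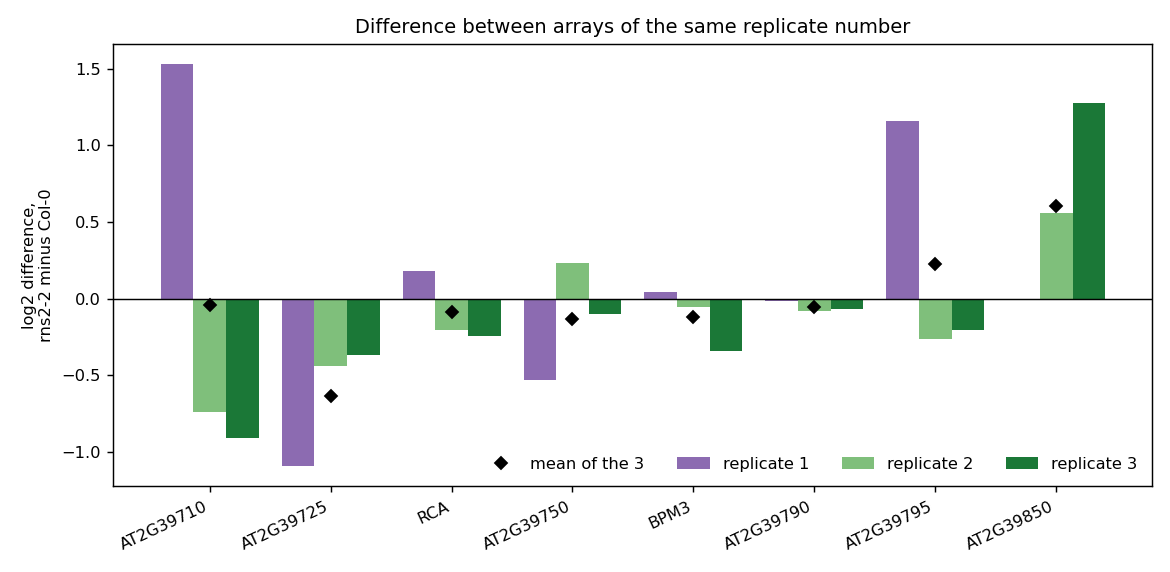
Log2 difference, rns2-2 minus Col-0, between arrays of the same replicate number (bars) and its mean (diamonds) for the 8 neighbours in chromosomal order. The replicate 1 bar points the other way from the replicate 2 and 3 bars for AT2G39710, RCA, BPM3 and AT2G39795, and is near 0 (-0.01) for AT2G39790 and AT2G39850. Equal numbers are not known to pair samples.

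The change did not run evenly with distance from RNS2. Distance is counted here in protein-coding genes. BPM3 is the second gene before RNS2, with 1 gene between, and AT2G39790 the second after it. The 4 neighbours within 3 genes of RNS2 (AT2G39750, BPM3, AT2G39790 and AT2G39795) had log2 changes from -0.13 to 0.23. The 4 farther ones, 5 to 10 genes away, ran from -0.63 for AT2G39725 to 0.61 for AT2G39850, with RCA at -0.09 and AT2G39710 at -0.04. All 5 genes before RNS2 were below 0 (median -0.12) and of the 3 after it 2 were above 0 (median 0.23). Over all probe sets 57.2% were below 0. Some of these signs rested on single arrays. AT2G39795 was at -0.21 without Col-0 replicate 1, and AT2G39790 at 0.033 without Col-0 replicate 3. AT2G39710 was above 0 without rns2-2 replicate 2 (0.03) or 3 (0.17), and without Col-0 replicate 2 (0.24) or 3 (0.19). It was below 0 without replicate 1 of rns2-2 (-0.32) or of Col-0 (-0.55). Across the 8 genes the size of the change and the distance had a Pearson r of 0.55 and a Spearman rho of 0.28, as a description of genes that share the same 6 arrays.

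Farther out, 20 more measured genes were compared, 10 on each side, and 0 passed the limma test. An unadjusted limma p under 0.05 was seen for 2 of them, and for 10.7% of all probe sets. The medians were -0.10 before the stretch and -0.05 after it. EXPA4, an expansin gene 10 genes before RNS2 and just outside the stretch, had the largest change of the 20. It read 9.25, 9.48 and 9.75 in rns2-2, against 8.33, 7.68 and 7.57 in Col-0, with no overlap (log2 change 1.63, SE 0.24, limma adjusted p = 0.275). On the far side AT2G39870, 14 genes after RNS2, had a log2 change of 0.74 (SE 0.25, limma adjusted p = 0.415), also with no overlap. No overlap between the genotypes was seen for 5 of the 20 genes, and for 18.5% of all probe sets.

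**Figure D4:**
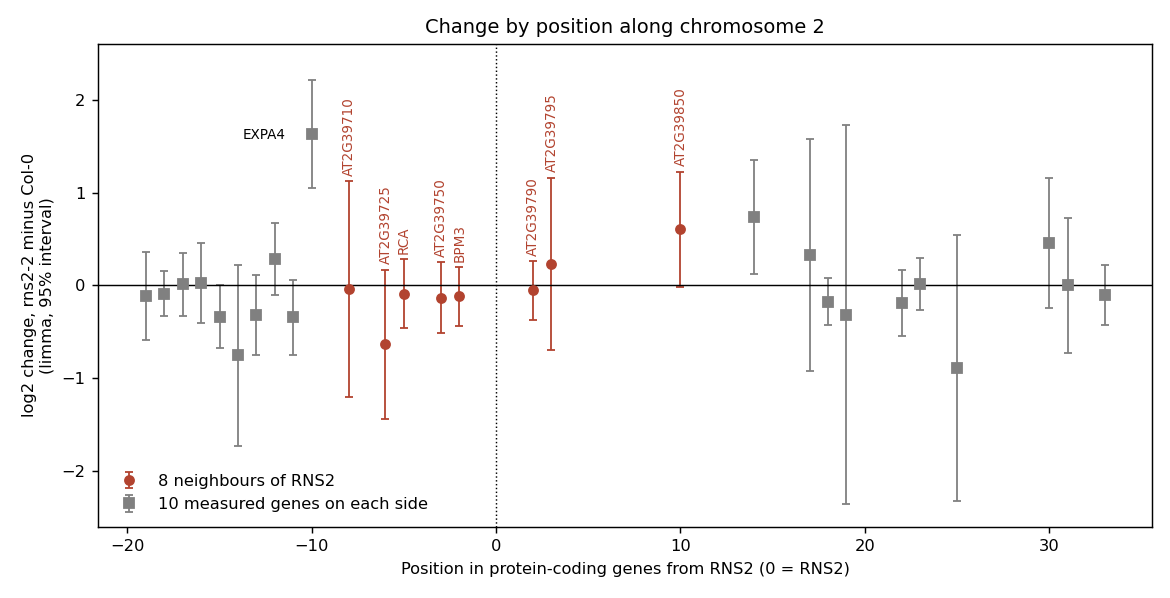
Log2 change, rns2-2 minus Col-0, with its 95% interval from limma (vertical axis) against position in protein-coding genes from RNS2 (horizontal axis, RNS2 at 0). The 8 neighbours (red circles) lie between -0.63 and 0.61 and every interval crosses 0, while EXPA4, among the flanking genes (grey squares), stands at 1.63.

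The neighbours did not move as a block from array to array. Among their 28 pairs the Pearson r over the 6 arrays was above 0 for 14, with a median near 0, and above 0 for 15 after the genotype means were removed. Genes that adjoin one another differed. RCA and AT2G39725 had an r of -0.54, AT2G39750 and BPM3 an r of 0.16, and AT2G39790 and AT2G39795 an r of 0.56. The last value includes AT2G39790, whose transcript could not be separated from background. AT2G39710 and AT2G39795, on opposite sides of RNS2, had the highest value, 0.78, and both had their lowest value in Col-0 replicate 1. The spread within genotypes differed widely too. The pooled SD of AT2G39710 (0.71) was above that of 95.2% of probe sets, and that of BPM3 (0.15) was above that of 34.6%.

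The closest patterns to each neighbour were sought among up to 5968 other single-locus probe sets brighter than the median, by Pearson r over the 6 arrays. Each r is the highest of that many candidates over few arrays and is given as a description. RCA was most like AT3G50560 and AT5G63380 (both r above 0.99), and AT2G39795 most like AT2G18900 (0.995) and ZCW7 (0.991). AT2G39750 was most like AT3G47630 (0.998), AT2G39725 most like AT4G16770 (0.992) and AT2G39710 most like AT1G07840 (0.987). BPM3, which varied little, reached 0.975 with AT4G20150, and AT2G39790 reached 0.969 with AT1G69330. For AT2G39850 the closest were AT1G62860 and GH3.3 (both r = 0.984), the second an auxin-conjugating enzyme gene.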

How the data were processed

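RNA was hybridised to Affymetrix ATH1 arrays, after amplification from 250 ng of total RNA, per the labels' protocols. The deposited values are log2 signals per probe set. Per the submitters' processing notes, they come from Affymetrix Expression Console. The scale was read from the values. Algorithm, software version and between-array normalization are not given in the sources used here. Of 22810 probe sets, 64 controls were left out. Names came from the platform annotation through Entrez identifiers, which gave 13436 single-locus probe sets. Each of the 8 members had 1 probe set. Start positions in RefSeq's gene table (TAIR10.1) were used only to order the genes along the chromosome. Distances are therefore counted in genes, not in bases. Functions without a gene symbol are background knowledge. The fit was limma 3.58.1 in R 4.3.3 (lmFit, eBayes, all 6 arrays, no block), two-sided, with Benjamini-Hochberg adjustment over 22746 probe sets and a threshold of 0.05, and was tested on simulated data. Members, lists and alternatives were chosen with earlier results of these data known. The rule named the 8 members, up to 3 genes per list by p, EXPA4 and the 2 closest patterns per member, and AT2G39870 and AT1G80720 were added after their values were seen. The number of arrays limits the precision.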

Additional observations from a re-analysis of the deposited data

How the results depend on the processing

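The count of neighbours past the threshold was 0 in all alternatives but one: it was 2 with replicates 2 and 3 only, where the median log2 change was -0.21. Without single arrays the count stayed at 0 and the median ran from -0.16 to 0.012. With the replicate block the count was 0. The median stayed at -0.07, which the block cannot alter where each replicate number has 1 array per genotype. Deviations from the genotype means correlated between same-numbered arrays at 0.06, -0.06 and 0.14, so the numbers were not taken as pairs. Of 133 alternative values of single genes, 119 kept direction and side of the threshold, 2 passed it and 12 changed sign, none of these past the threshold. The 119 include fits in which the direction could not change, so they are no measure of robustness. Both filters, the intensity trend, the robust prior, the replicate block and leaving out cross-reacting probe sets alter only the p-values. The sign changed for AT2G39790 with quantile normalization (0.048), for AT2G39750 with array weights (0.040) and with replicates 2 and 3 only (0.065), for AT2G39795 with array weights (-0.045) and with replicates 2 and 3 only (-0.24), and for AT2G39710 with replicates 2 and 3 averaged (0.35). Without single arrays the log2 change ran from -0.55 to 0.24 for AT2G39710, from -0.21 to 0.52 for AT2G39795 and from -0.14 to 0.033 for AT2G39790. The cause was not tested. A second probe set per gene could not be tried. Filters left 7 members at the 25th percentile and 6 at the median. Dim genes could not be set against background.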
